A study of Mus musculus with 12 samples.

Results

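Keratins, desmosome proteins and cornified envelope proteins of epithelium were examined on 12 one-colour arrays of mouse tissue: the keratins Krt5, Krt8, Krt14, Krt15 and Krt18, the desmosome genes Perp and Dsp, and the cornified envelope gene Lor. The genes were taken by symbol in the platform annotation, which gave 9 of the 29922 probes, with 2 probes for Dsp and 1 for each other gene. All 8 genes, of 16637 with a symbol, had a probe. The tissue was labelled as muscle and came from BALB/c mice. It had 4 groups of 3 arrays: diabetic mice treated with 2.5 nmol mcIRBP, diabetic mock mice, normal mice treated with 2.5 nmol mcIRBP, and normal mock mice. mcIRBP is an insulin receptor-binding protein of bitter melon, and the mock mice were labelled as untreated. All diabetic mice were labelled male and all normal mice female, so disease state and sex cannot be told apart. The authors' normalized values also formed a separate set for each disease state. The labels do not say how diabetes was brought about, how old the mice were or whether the 3 arrays of a group came from 3 mice, so the p-values measure only the spread between arrays, which may be technical.

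Keratins are the intermediate filament proteins of epithelial cells, and each filament pairs a type I with a type II keratin. Krt8 with Krt18 forms the pair of simple epithelia such as liver, gland ducts and gut, whereas Krt5 with Krt14 forms the pair of the basal layer of stratified epithelia and of myoepithelial and basal cells of glands. Krt15 is another type I keratin of basal cells. Desmoplakin, encoded by Dsp, ties keratin filaments to the desmosome, Perp is a p53-induced membrane protein of desmosomes, and loricrin, encoded by Lor, is a main protein of the cornified envelope of skin. Skeletal muscle fibres use desmin in place of keratins as their main intermediate filament.

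Krt8 and Krt18 lie next to each other on mouse chromosome 15, with starts 23.9 kb apart and on opposite strands, while Krt14 lies on chromosome 11 and its usual partner Krt5 on chromosome 15. The promoters of these 4 keratins are shown because Krt8, Krt18 and Krt14 all rose in diabetic mice whereas Krt5 stayed at the floor of the array. The 250 bases before each start are from the RefSeq annotation of GRCm38.p6, 5′ to 3′ along the gene, and the table held 6 of the 8 genes, without Krt15 and Perp. Capitals mark matches, on either strand, to 4 motifs searched from 250 bases before to 50 bases after the start.
Krt8, chr15:102004343-102004592, minus strand: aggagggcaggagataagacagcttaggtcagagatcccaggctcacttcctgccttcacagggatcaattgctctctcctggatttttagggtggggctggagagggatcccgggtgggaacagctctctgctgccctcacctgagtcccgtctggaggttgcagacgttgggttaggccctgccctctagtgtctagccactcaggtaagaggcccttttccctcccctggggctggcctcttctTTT
Krt18, chr15:102027966-102028215, plus strand: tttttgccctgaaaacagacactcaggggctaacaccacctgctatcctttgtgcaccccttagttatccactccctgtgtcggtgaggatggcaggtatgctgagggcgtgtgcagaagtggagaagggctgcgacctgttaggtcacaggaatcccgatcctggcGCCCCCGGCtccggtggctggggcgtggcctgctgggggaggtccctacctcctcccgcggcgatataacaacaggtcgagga
Krt14, chr11:100206031-100206280, minus strand: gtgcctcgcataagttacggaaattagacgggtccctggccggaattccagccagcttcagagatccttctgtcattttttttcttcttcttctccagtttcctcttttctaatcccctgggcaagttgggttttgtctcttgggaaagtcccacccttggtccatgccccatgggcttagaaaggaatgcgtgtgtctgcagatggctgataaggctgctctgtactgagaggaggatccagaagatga
Krt5, chr15:101712906-101713155, minus strand: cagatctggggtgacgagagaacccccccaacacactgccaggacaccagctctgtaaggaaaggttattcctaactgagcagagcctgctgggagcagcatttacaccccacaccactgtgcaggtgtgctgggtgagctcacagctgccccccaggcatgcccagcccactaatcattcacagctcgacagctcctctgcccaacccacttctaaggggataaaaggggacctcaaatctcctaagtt
The motifs were the TATA box letters TATAAA, the GC box GGGCGG, the AP-1 letters TGANTCA and the AP-2 letters GCCNNNGGC, and no other motif was searched. In Krt18, 1 AP-2 match began 83 bases before the start; 16.6% of 32851 promoters of this length held one. In Krt8 there were 2 overlapping TATAAA matches, 1 on each strand, which ran across the start so that only the capitals at the end of the shown sequence belong to them; 13.6% of promoters held TATAAA. Neither Krt14 nor Krt5 held any of the 4 motifs. These matches describe letters in a window, and no binding was measured.

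The arrays differed in how many probes stood out from the floor. A probe counted as above threshold when its log2 raw intensity exceeded that of the most frequent intensity of its array by 5 SD. The SD was that of the log2 values mirrored below that mode. By this measure 4302 to 7855 probes per array were above threshold in diabetic mcIRBP, 9230 to 12451 in diabetic mock, 5391 to 8471 in normal mcIRBP and 2488 to 3872 in normal mock. Markers of skeletal muscle fibres were above threshold in part: of 18, 14 were above it on at least 1 array. On all 3 arrays of a group, 3 were above threshold on the diabetic mcIRBP arrays, 4 on the diabetic mock arrays, 1 on the normal mcIRBP arrays and 1 on the normal mock arrays. The other 4, Tnnt3, Tnni2, Actn3 and Myh7, which encode parts of the muscle sarcomere, were above it on no array, and Ckm, muscle creatine kinase, on 0 diabetic arrays and on 2 arrays of each normal group. Acta1, skeletal muscle actin, was above it on all 6 normal arrays, on 2 diabetic mock arrays and on 0 diabetic mcIRBP arrays. With mcIRBP 1 of the 18 rose, Pvalb, and 1 fell, Myl1, in diabetic mice, and 0 rose and 4 fell, Ckm, Atp2a1, Mylpf and Mb, in normal mice. Of all genes, with 1 probe per gene, 9.38% were called in diabetic mice and 8.11% in normal mice.

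In diabetic mice the keratins Krt8, Krt18 and Krt14 were 3.86-fold to 5.42-fold higher after mcIRBP than in mock mice. The desmosome gene Perp was 2.63-fold higher and Dsp 2.11-fold higher. Of the 9 probes 7 rose and 0 fell (limma, Benjamini-Hochberg adjusted p under 0.05 over all probes), where 6.71% of all probes were called and 3.69% rose. The median log2 fold change of the 9 probes was 1.08, and that of all probes was 0.01. The remaining calls, Lor and Krt15, were small and at or near the floor, and Krt5 and the other Dsp probe were not called. In normal mice Krt8, Krt18, Perp and Dsp (mMC009911) were lower after mcIRBP, and both Krt14 and this Dsp probe were below threshold on all 6 arrays.

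**Figure D1:**
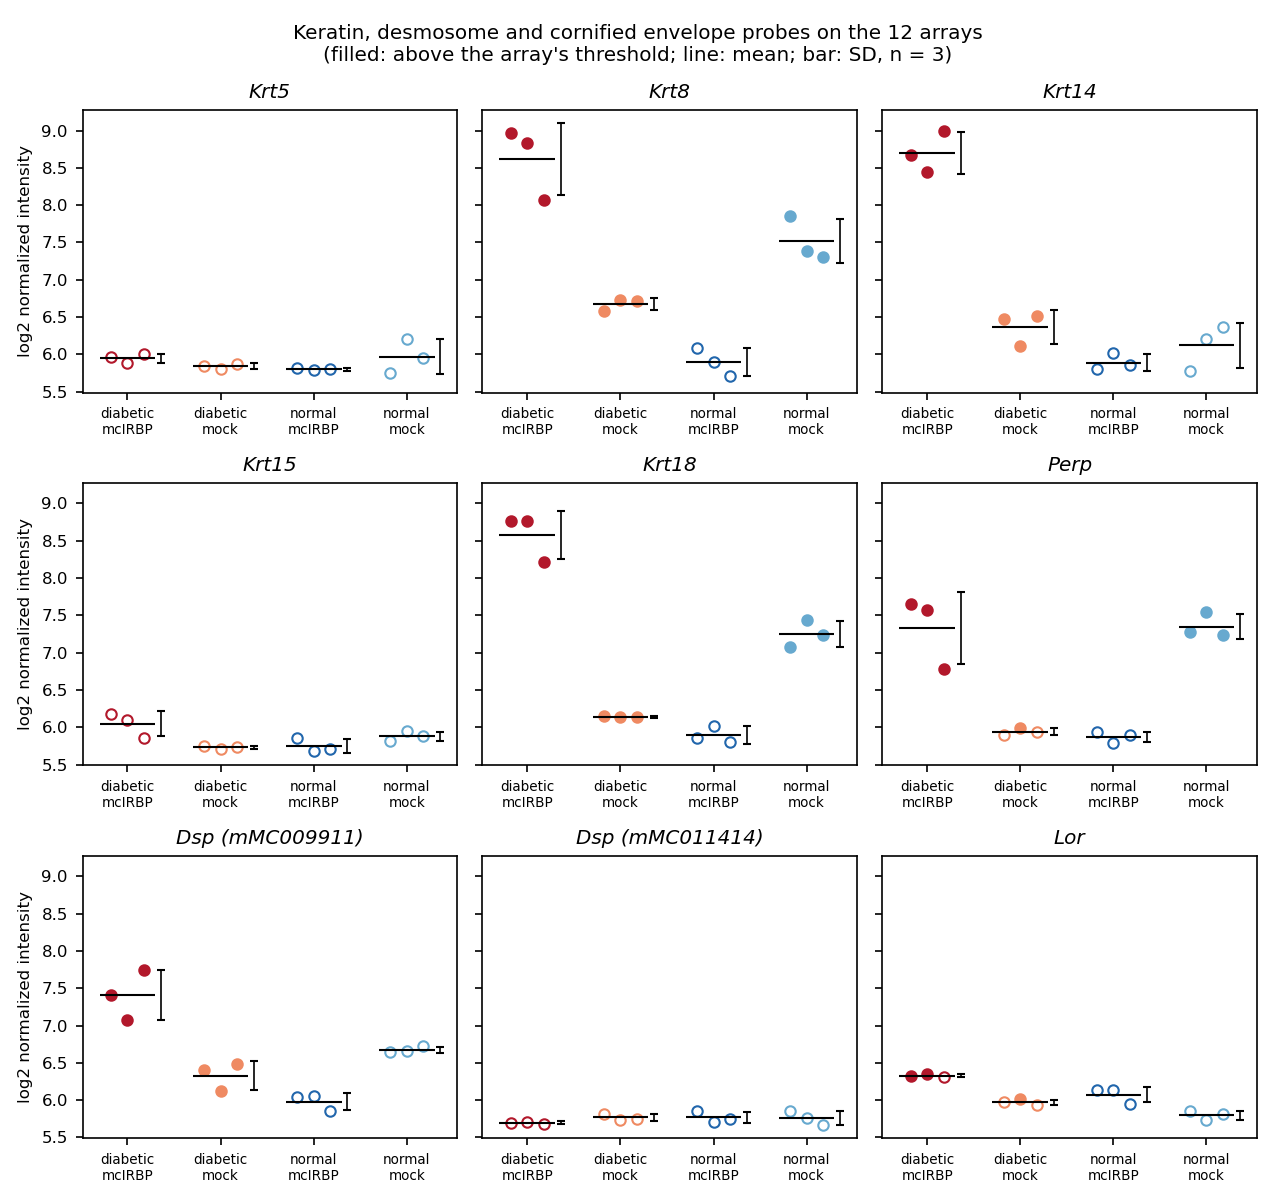
The log2 normalized intensity of each of the 9 probes on the 12 arrays, with the groups along the x axis in the order diabetic mcIRBP, diabetic mock, normal mcIRBP and normal mock. Points are arrays (filled above the threshold of the array, hollow below it), lines are means and bars are SD (n = 3). Krt8, Krt18, Krt14, Perp and one Dsp probe are highest or level with the highest in diabetic mcIRBP. Krt8, Krt18 and Perp are also above threshold on all 3 normal mock arrays, though narrowly on replicate 3 (raw 94, 91 and 91 against a threshold of 88.3).

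Krt8, the type II keratin of simple epithelia, had raw intensities of 684, 524 and 138 on the diabetic mcIRBP arrays and of 110, 209 and 119 on the diabetic mock arrays. It had 65, 81 and 60 on the normal mcIRBP arrays and 125, 144 and 94 on the normal mock arrays. The third diabetic mcIRBP array was low and lay within the raw range of the diabetic mock arrays, but after normalization the groups did not overlap: the log2 intensity was 8.62 ± 0.48 in diabetic mcIRBP, 6.67 ± 0.08 in diabetic mock, 5.90 ± 0.19 in normal mcIRBP and 7.52 ± 0.30 in normal mock (SD, n = 3 each). The log2 fold change with mcIRBP was 1.95 in diabetic mice (SE 0.22, limma adjusted p = 0.000378). With median scaling of the arrays in place of quantile normalization it was 1.39 and its adjusted p was 0.0766 in limma, so the call was lost.

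Krt18, the type I partner of Krt8, had raw intensities of 581, 494 and 153 in diabetic mcIRBP and of 68, 85 and 65 in diabetic mock. Its raw intensities were 60, 84 and 63 in normal mcIRBP and 90, 146 and 91 in normal mock. Every diabetic mcIRBP array exceeded every other array, and the normal mcIRBP arrays were all below threshold. On the log2 scale Krt18 averaged 8.58 ± 0.32 in diabetic mcIRBP, 6.14 ± 0.01 in diabetic mock, 5.89 ± 0.12 in normal mcIRBP and 7.25 ± 0.18 in normal mock (SD, n = 3 each). The log2 fold change in diabetic mice was 2.44 (SE 0.15, limma adjusted p = 3.28e-06), and under 20 alternatives it lay between 1.91 and 3.25 and kept its call.

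Krt14, the type I keratin of basal cells, had raw intensities of 538, 372 and 276 in diabetic mcIRBP and of 98, 80 and 98 in diabetic mock. In normal mcIRBP they were 58, 84 and 65, and in normal mock 59, 99 and 61. The diabetic groups did not overlap, and all 6 normal arrays were below threshold. The log2 intensity was 8.70 ± 0.28 in diabetic mcIRBP, 6.37 ± 0.23 in diabetic mock, 5.89 ± 0.11 in normal mcIRBP and 6.12 ± 0.30 in normal mock (SD, n = 3 each). The rise in diabetic mice was 2.34 on the log2 scale (SE 0.18, limma adjusted p = 2.40e-05), or 5.05-fold.

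Krt5, with which Krt14 usually pairs, was above threshold on no array. Its raw intensities were 42, 41 and 40 in diabetic mcIRBP and 41, 39 and 42 in diabetic mock, and its log2 fold change was 0.11 (95% interval -0.10 to 0.33, limma adjusted p = 0.794). A probe at the floor sets no level for its RNA. Krt15 was likewise above threshold on no array. Its raw intensities were 58, 55 and 38 in diabetic mcIRBP and 37, 35 and 36 in diabetic mock. The log2 fold change of Krt15 was 0.32 and its adjusted p in limma, 0.05 as rounded, was just within the threshold; the call was lost under 13 of 19 alternatives, among them leaving out diabetic mcIRBP replicate 1 (0.25, adjusted p = 0.173).

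Perp had raw intensities of 221, 184 and 64 in diabetic mcIRBP and of 44, 62 and 45 in diabetic mock. It had 62, 77 and 66 in normal mcIRBP and 97, 152 and 91 in normal mock. The diabetic mcIRBP and normal mock arrays were all above threshold, against 1 of 3 diabetic mock arrays and 0 of 3 normal mcIRBP arrays. Perp averaged 7.33 ± 0.48 in diabetic mcIRBP, 5.94 ± 0.05 in diabetic mock, 5.87 ± 0.07 in normal mcIRBP and 7.35 ± 0.17 in normal mock on the log2 scale (SD, n = 3 each). The log2 fold change with mcIRBP in diabetic mice was 1.39 (SE 0.19, limma adjusted p = 0.00128).

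Dsp was read by a pair of probes that disagreed. The probe mMC009911 had raw intensities of 178, 127 and 114 in diabetic mcIRBP, 90, 81 and 94 in diabetic mock, 64, 85 and 65 in normal mcIRBP, and 70, 104 and 65 in normal mock. The diabetic mcIRBP arrays were all above the diabetic mock arrays, and no normal array was above threshold. Its log2 fold change in diabetic mice was 1.08 (SE 0.15, limma adjusted p = 0.00139). The probe mMC011414 was below threshold on all 12 arrays, with a log2 fold change of -0.07 (95% interval -0.20 to 0.06, limma adjusted p = 0.794). Probe sequences were not used here, so which part of the transcript each probe reads is not known.

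Lor was near the floor. Its raw intensities were 66, 68 and 44 in diabetic mcIRBP, where 2 arrays were above threshold, and 52, 64 and 46 in diabetic mock, where 1 was. The normal mcIRBP arrays had 66, 90 and 67 and the normal mock arrays 61, 87 and 55, all below their thresholds. After normalization the diabetic groups did not overlap, at 6.33 ± 0.02 in diabetic mcIRBP and 5.97 ± 0.03 in diabetic mock (SD, n = 3 each), and the log2 fold change was 0.36 (limma adjusted p = 0.00385), or 1.28-fold. With median scaling the change in Lor was 0.20 and was not called (limma adjusted p = 0.245).

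In normal mice 4 of the 9 probes fell after mcIRBP and 1 rose, where 6.34% of all probes were called and 2.77% fell. Krt8 fell by 1.62 on the log2 scale (limma adjusted p = 0.00182) and Krt18 fell by 1.35 (limma adjusted p = 0.000302). Because no normal mcIRBP array was above threshold for either, the folds under quantile normalization are bounds, at least 2.31-fold lower for Krt8 and at least 1.92-fold lower for Krt18. Perp fell by 1.48 (limma adjusted p = 0.00116), at least 2.07-fold. The Dsp probe mMC009911 fell by 0.69 (limma adjusted p = 0.0232) and Lor rose by 0.27 (limma adjusted p = 0.0217), both with all 6 arrays below threshold and hence without a fold. Krt14 differed by -0.22 (95% interval -0.63 to 0.18, limma adjusted p = 0.499). None of the 5 calls remained under median scaling, where the log2 fold changes kept their signs but were smaller, at -0.90 for Krt8, -0.72 for Krt18, -0.80 for Perp, -0.15 for Dsp and 0.20 for Lor. There the limma adjusted p-values ran from 0.215 for Perp to 0.534 for Dsp. Few probes of any kind were called under median scaling in normal mice, 292 of all 29922, with 261 of them lower. Array weights also ended the calls of Dsp (limma adjusted p = 0.410) and Lor (0.175), and Lor was not called with the authors' normalized intensity (0.381) or with the 6 compared arrays alone (0.256). The Dsp call was lost without normal mcIRBP replicate 3 (limma adjusted p = 0.0706) and without normal mock replicate 3 (0.0544), and that of Lor without normal mcIRBP replicate 1 (0.0508), normal mcIRBP replicate 2 (0.0619) or normal mock replicate 2 (0.0549).

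**Figure D2:**
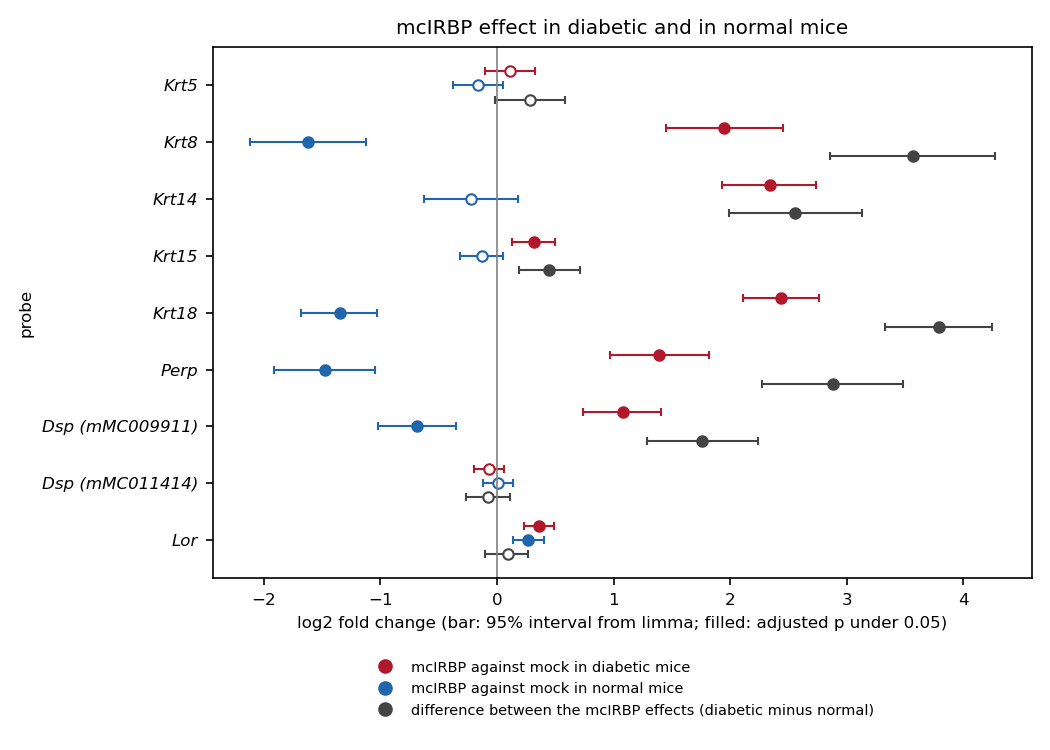
Log2 fold changes of the 9 probes with mcIRBP over mock in diabetic mice and in normal mice, and the difference between these effects; bars are 95% intervals from limma and filled points have an adjusted p under 0.05. Krt8, Krt18, Perp and one Dsp probe lie right of 0 in diabetic mice and left of 0 in normal mice, while Krt14 moved in diabetic mice.

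The difference between the mcIRBP effects, diabetic minus normal, was tested directly and was above 0 and called for 6 of the 9 probes and below 0 for 0 called, where 9.22% of all probes were called. It was 3.79 for Krt18 (95% interval 3.33 to 4.25, limma adjusted p = 1.02e-06) and 3.57 for Krt8 (95% interval 2.86 to 4.27, limma adjusted p = 4.88e-05). It was 2.88 for Perp, 2.56 for Krt14 and 1.76 for the Dsp probe mMC009911, with limma adjusted p-values of 8.02e-05, 0.000121 and 0.000439. These 5 kept their calls under all 18 alternatives of this comparison, but their sizes depended on the processing. Median scaling gave 2.87 for Krt18, 2.29 for Krt8, 2.12 for Perp, 2.01 for Krt14 and 0.79 for the Dsp probe. Over the alternatives Krt18 ran from 2.86 to 5.43 and Krt8 from 2.29 to 4.96, so the intervals above do not cover the choice of processing. For all 5 every normal mcIRBP array was below threshold. For Lor, which was higher after mcIRBP in both states, the difference was 0.09 (95% interval -0.10 to 0.27, limma adjusted p = 0.604). Krt15, at the floor throughout, had a difference of 0.45 (limma adjusted p = 0.0388), which was lost under 10 of 17 alternatives.

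Set against normal mcIRBP mice, diabetic mcIRBP mice had 7 of the 9 probes higher and 0 lower, where 11.7% of all probes were called. Krt14 was at least 5.28-fold higher, Krt8 at least 4.98-fold and Krt18 at least 4.85-fold. Krt15 and Lor were the smallest of the 7, at 0.30 and 0.26 on the log2 scale, and lost their calls under 11 and 3 of 18 alternatives. Among mock mice, 3 of the 9 probes were lower in the diabetic group and 0 higher, where 8.71% of all probes were called. Perp differed by -1.42 on the log2 scale (limma adjusted p = 0.00141) and Krt18 by -1.10 (limma adjusted p = 0.00123), but under median scaling these were -0.66 and -0.18 and neither was called. Krt8 differed by -0.84 (limma adjusted p = 0.0460) under quantile normalization and by 0.46, the other way, under median scaling (limma adjusted p = 0.416), and the Dsp probe mMC009911 turned likewise, with -0.34 and 0.57. Krt14 was 0.25 higher in diabetic mock mice (limma adjusted p = 0.394) and 0.78 higher under median scaling (limma adjusted p = 0.0102). Median scaling called 2 of the 9 probes, both higher in diabetic mock mice, but it called 15092 of all 29922 probes, 10073 of them higher. The direction of the diabetic state in mock mice was thus not settled for Krt8 and Dsp. The mock call for Krt8 was kept under only 6 of the 19 alternatives. It was lost with the same direction under 12, among them leaving out any 1 of 10 arrays. Under median scaling Krt8 turned direction and was not called either. Its raw intensities less the mode of each array were 71, 170 and 79 in diabetic mock mice and 65, 52 and 37 in normal mock mice. For Krt18 they were 29, 46 and 25 in diabetic mock mice and 30, 54 and 34 in normal mock mice.

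The order of the 4 groups differed between genes. For Perp, diabetic mcIRBP differed from normal mock by -0.02 on the log2 scale (95% interval -0.45 to 0.41, limma adjusted p = 0.949), and normal mcIRBP from diabetic mock by -0.07 (95% interval -0.49 to 0.36, limma adjusted p = 0.937). Krt8 was 1.11 higher in diabetic mcIRBP than in normal mock (limma adjusted p = 0.00797) and Krt18 was 1.34 higher (limma adjusted p = 0.000152). Krt14 was 2.59 higher (limma adjusted p = 4.92e-06), at least 3.25-fold. In this comparison 5 of the 9 probes were higher and 0 lower, where 16.3% of all probes were called. Between normal mcIRBP and diabetic mock 0 of the 9 probes were called in limma, where 1.37% of all probes were. An unadjusted p under 0.05 was reached by 3 of the 9, with -0.78 for Krt8, -0.48 for Krt14 and -0.35 for the Dsp probe.

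Likeness of pattern was measured as the root-mean-square difference of centred log2 values over the 12 arrays, among 7313 genes above threshold on all arrays of at least 1 group. The genes most like Krt8 were Krt18 at 0.30, Atp1b1 (the beta subunit of the sodium pump) at 0.32 and the tight junction gene Cldn2 at 0.37. For Krt18 they were Cldn2 at 0.22, Atp1b1 at 0.29 and Krt8 at 0.30. Perp was most like Mal2, a membrane protein of epithelial transport, at 0.18, then Slc37a4 at 0.26 and Rnf128 at 0.27. Krt14 was most like the pancreatic protease gene Cela3b at 0.20, Ramp1 at 0.21 and Tmed6 at 0.22, and Dsp was most like the steroid-synthesis gene Cyp17a1 at 0.20, Pdia5 at 0.21 and Hdac11 at 0.22. Krt14 and Perp were the least alike of the 5 genes. Each of these values shares the same arrays and the same few group differences.

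Genes next to the 8 on the chromosomes did not all move with them. Krt78, on the other side of Krt8, and Eif4b, on the other side of Krt18, differed by 0.11 and -0.21 in diabetic mice (limma adjusted p = 0.512 and 0.758). Krt9 and Krt16, the neighbours of Krt14, were above threshold on no array. Of the neighbours of Krt15, Krt19 rose by 1.65 in diabetic mice (limma adjusted p = 3.57e-05), while Krt13 differed by 0.28 (limma adjusted p = 0.454).

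Among the other 43 measured keratins 4 rose and 0 fell in diabetic mice after mcIRBP, and 0 were called in normal mice, where 7 had an unadjusted p under 0.05 (limma); 30 of the 43 were above threshold on no array. At the gene level, with 1 probe per gene, 9.38% of 16637 genes were called in diabetic mice and 5.19% rose. In normal mice 8.11% of genes were called. These shares are the background for the counts of every gene list below. Krt19, the simple-epithelial type I keratin, had raw intensities of 270, 219 and 124 in diabetic mcIRBP and of 68, 101 and 69 in diabetic mock, and was 3.14-fold higher. Krt7, a type II keratin of ducts, was 1.86-fold higher (limma adjusted p = 0.000164). Krt17 was 1.74-fold higher and Krt23 at least 1.44-fold higher. The median log2 fold change over the 43 was 0.02.

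Of 16 desmosome genes other than Perp and Dsp, 2 rose and 0 fell in diabetic mice, where 9.38% of all genes were called. Of the 16, 9 were above threshold on no array. In normal mice 1 rose, Evpl, with every normal array below threshold, and 1 fell, Dsg2, where 8.11% of all genes were called. Dsg2, the desmoglein of simple epithelia and heart, followed the pattern of Krt18 and Perp. Its raw intensities were 181, 140 and 113 in diabetic mcIRBP, 42, 42 and 43 in diabetic mock, 60, 77 and 65 in normal mcIRBP, and 102, 141 and 90 in normal mock. It was at least 2.67-fold higher with mcIRBP in diabetic mice (limma log2 1.59) and at least 2.02-fold lower in normal mice (limma log2 -1.48, adjusted p = 1.27e-05), and the difference between the effects was 3.07 (limma adjusted p = 5.15e-07). Pkp3, a plakophilin, rose by 0.30 on the log2 scale in diabetic mice, a call that was lost under median scaling (limma adjusted p = 0.324).

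Of 19 genes of epithelial adherens and tight junctions 9 rose and 0 fell in diabetic mice, with a median log2 fold change of 0.49 against 0.01 for all genes. Cldn3, a claudin, had raw intensities of 1072, 803 and 421 in diabetic mcIRBP and of 72, 95 and 63 in diabetic mock, and was 9.94-fold higher. Cldn7 was 7.40-fold higher, Cdh1, which encodes E-cadherin, 4.05-fold higher and Cldn8 at least 2.24-fold higher. In normal mice 2 of the 19 rose, Ctnnd1 and Tjp1, and 0 fell, a count that ran from 0 to 3 over 20 alternatives. Neither was called under median scaling (limma adjusted p = 0.146 for Ctnnd1 and 0.170 for Tjp1), and the Tjp1 call was lost under 16 of the 20, including leaving out any one of 11 arrays.

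Of 14 epithelial regulators and surface proteases 9 rose and 0 fell in diabetic mice, with a median log2 fold change of 0.85. Spint1, a protease inhibitor, was at least 2.70-fold higher, Rab25, a small GTPase of epithelial membrane traffic, at least 3.63-fold, Rbm35a (current symbol Esrp1), an epithelial splicing regulator, at least 2.41-fold and the transcription factor Ehf at least 1.31-fold. In normal mice 1 of the 14 fell, Ovol1, with every normal array below threshold, and 0 rose. The Ovol1 call was lost under 8 of 19 alternatives. Trp63, the p63 transcription factor of basal cells, was not among the calls, with raw intensities of 62, 57 and 39 in diabetic mcIRBP and 43, 56 and 44 in diabetic mock.

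Of 34 genes of the cornified envelope and skin barrier 3 rose and 1 fell in diabetic mice, where 9.38% of all genes were called, and 22 of the 34 were above threshold on no array. Calml3, a calmodulin-like protein of epithelia, rose by 2.09 on the log2 scale, the protease inhibitor Spink5 by 2.07 and Scel, which encodes sciellin, by 0.58. Sbsn, which encodes suprabasin, fell by 0.81 in diabetic mice and rose by 0.80 in normal mice (limma adjusted p = 0.00396). The rise of Sbsn in normal mice lost its call under 3 of 20 alternatives, which were median scaling (1.56, limma adjusted p = 0.153), the authors' normalized intensity (0.111) and the 6 compared arrays alone (0.0967). Sprr3 fell by 0.24 in normal mice with every normal array below threshold, a call that was lost under 13 of 19 alternatives. Of 10 genes of the hemidesmosome and basal layer 0 rose and 1 fell in diabetic mice. This was Itga6, an integrin, by 0.67, a call that was lost under 10 of 20 alternatives. In normal mice 1 of the 10 rose, Cd151, by 1.25 (limma adjusted p = 0.0337), and 0 fell. The Cd151 call was lost under 14 of 20 alternatives.

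Perp is a p53 target, and of 17 other p53 targets measured 0 rose and 3 fell in diabetic mice, where 9.38% of all genes were called. These were Trp53inp1 (log2 -1.14), Cdkn1a, the cell cycle inhibitor p21 (-1.11), and Phlda3 (-0.83). Leaving out 1 array gave 1 to 3 calls: that of Phlda3 was lost without any one of the 6 diabetic arrays (highest limma adjusted p = 0.139) or normal mcIRBP replicate 3 (0.0507), and that of Cdkn1a without diabetic mcIRBP replicate 2 (0.0525) or diabetic mock replicate 1 (0.0550). In normal mice 2 rose, Gadd45a and Plk2, and 2 fell, Trp53inp1 and Sesn1, and all 4 calls were lost under median scaling (limma adjusted p = 0.142 to 0.635). Trp53inp1 and Sesn1 were below threshold on every normal array, and Gadd45a and Plk2 on every normal mock array. Of 15 intermediate filament genes other than keratins, 1 rose, Dmn, which encodes synemin, and 1 fell, Lmna, a nuclear lamin, in diabetic mice. The Dmn call was lost under 12 of 20 alternatives. In normal mice 1 of the 15 rose, Nes, by 0.34 and 0 fell, and the Nes call was lost under 6 of 20 alternatives.

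**Figure D3:**
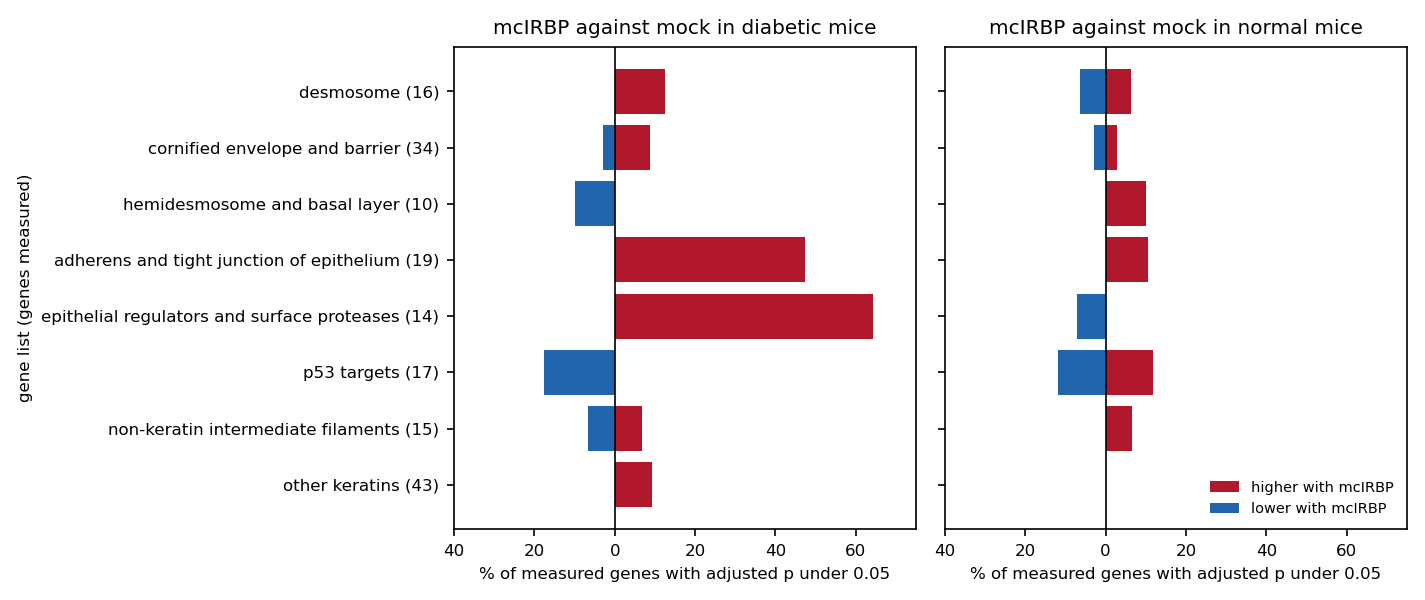
The share of measured genes of each related list with an adjusted p under 0.05, higher (right) or lower (left) with mcIRBP, in diabetic mice on the left panel and in normal mice on the right. The 2 lists of epithelial junctions and epithelial regulators have the longest bars in diabetic mice, with 9 of 19 and 9 of 14 genes higher.

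Markers of epididymis and pancreas rose with mcIRBP in diabetic mice. In normal mice, all labelled female, 0 of the 24 epididymis and 0 of the 8 acinar markers were called (limma, 2 of each with an unadjusted p under 0.05). Nearly all of these markers were near the floor in both normal groups, so these counts do not tell whether the effect differed there. Of 24 epididymis markers, such as the beta-defensin Defb20, all 24 rose with mcIRBP in diabetic mice, and 23 were above threshold on all 3 diabetic mcIRBP arrays, 19 on the diabetic mock arrays, 1 on the normal mcIRBP arrays and 1 on the normal mock arrays. Their summed normalized intensity was 95022 to 97394 in diabetic mcIRBP, 3654 to 3752 in diabetic mock, 1489 to 1885 in normal mcIRBP and 2373 to 2547 in normal mock. All 8 markers of pancreatic acinar cells, among them the trypsinogen Prss2, also rose in diabetic mice, with sums of 7266 to 8430 in diabetic mcIRBP, 838 to 933 in diabetic mock, 442 to 495 in normal mcIRBP and 475 to 531 in normal mock. All 8 were above threshold on all 3 diabetic mcIRBP arrays and 7 on the diabetic mock arrays, and 0 on all 3 arrays of either normal group.

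Summed liver markers were highest in normal mock and lowest in diabetic mcIRBP. Krt8, Krt18, Perp and Dsg2 were above threshold on all arrays of both these groups, and Krt8 and Krt18 also on all diabetic mock arrays. Krt8 and Krt18 were highest in diabetic mcIRBP. With mcIRBP in diabetic mice 0 liver markers rose and 3 fell. Of 17 hepatocyte markers 2 were above threshold on all 3 arrays in diabetic mcIRBP, 4 in diabetic mock, 3 in normal mcIRBP and 16 in normal mock. Their sums were 2221 to 2489 in diabetic mcIRBP, 12726 to 14655 in diabetic mock, 7853 to 9665 in normal mcIRBP and 57276 to 65803 in normal mock, and 15 of the 17 fell with mcIRBP in normal mice. Alb, serum albumin, had raw intensities of 164, 354 and 171 in normal mcIRBP and of 5124, 8155 and 5866 in normal mock. Of 13 adipocyte markers 10 fell with mcIRBP in diabetic mice, with sums of 6558 to 6981 in diabetic mcIRBP, 49472 to 51590 in diabetic mock, 47040 to 58634 in normal mcIRBP and 30182 to 34457 in normal mock. Of 9 endothelial markers 0 rose and 5 fell in diabetic mice, and 4 rose and 0 fell in normal mice.

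Of 11 markers of intestinal epithelium 1 rose and 0 fell in diabetic mice and 2 fell and 0 rose in normal mice, with sums of 696 to 710 in diabetic mcIRBP, 635 to 640 in diabetic mock, 617 to 651 in normal mcIRBP and 698 to 769 in normal mock. Cdhr5, a cadherin of the brush border, was called in both states, with mean log2 intensities of 6.87 in diabetic mcIRBP, 5.86 in diabetic mock, 5.89 in normal mcIRBP and 6.94 in normal mock. Of 9 markers of smooth muscle and myoepithelium 2 rose in diabetic mice, Acta2 and Myh11, and 1 fell, Smtn, and 0 were called in normal mice (limma, 3 with an unadjusted p under 0.05), with sums of 1421 to 1745 in diabetic mcIRBP, 1038 to 1129 in diabetic mock, 775 to 965 in normal mcIRBP and 667 to 756 in normal mock.

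Of 17 measured hair follicle genes 0 were called with mcIRBP in either state, with an unadjusted p under 0.05 for 0 in diabetic and 4 in normal mice (limma), and 14 of them were above threshold on no array. No seminal vesicle or prostate marker of 9 was above threshold on all 3 arrays of any group, and 0 of 10 mammary and salivary markers were called in diabetic mice (limma, 0 with an unadjusted p under 0.05). Of 6 urothelial markers 1 rose in diabetic mice, which was Krt7, and of 11 mesothelial markers 2 rose, Krt7 and Krt19, and 2 fell. The part that epididymis, pancreas, liver, fat, gut, smooth muscle or myoepithelial RNA had in the keratin and desmosome values was not tested. In bulk tissue a change in the number of cells of a type and a change in RNA per cell cannot be told apart.

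**Figure D4:**
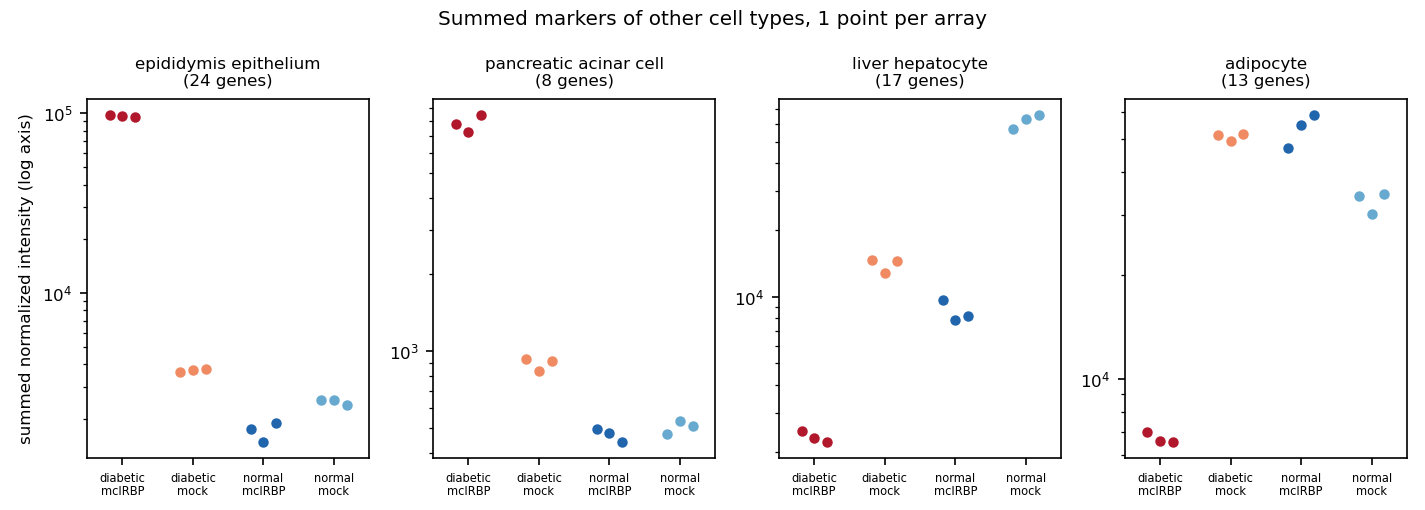
Summed normalized intensity, on a log axis, of markers of epididymis epithelium (24 genes), pancreatic acinar cells (8), hepatocytes (17) and adipocytes (13); each point is 1 array, with groups in the order diabetic mcIRBP, diabetic mock, normal mcIRBP and normal mock. The epididymis and acinar sums are highest in diabetic mcIRBP and the hepatocyte sum is highest in normal mock.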

How the data were processed

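Each deposited file gives, on a linear scale, a raw intensity and the authors' normalized intensity for every probe. Limma was named per the submitters' processing notes without a version, and per the labels 5 ug of total RNA was labelled with Cy5. The sources used here do not describe how the raw intensity was made. With limma 3.58.1 in R 4.3.3, raw intensities were background corrected by normexp (offset 50), log2 transformed and quantile normalized over the 12 arrays. The linear model fitted the 4 group means (8 residual degrees of freedom), and p-values were adjusted by Benjamini-Hochberg over 29922 probes at 0.05. "Rose", "fell" and "called" refer to that threshold. Each fold is 2 to the power of the log2 fold change, or a bound ("at least") against the lowest intensity above threshold where no array of 1 group was above it; the bounds, thresholds and normalization limit small values. Of the probes, 21020 had 1 gene symbol and 8902 none. A list takes, for each gene, the probe with the highest mean. Of each related list, up to 4 called genes with the lowest p were named for mcIRBP against mock in diabetic and in normal mice. Krt13, Trp63, Alb, Defb20, Prss2, Cdhr5, Acta2, Myh11, Smtn and the skeletal muscle genes were named outside this rule.

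The genes and lists were chosen with earlier results of these data known, so their counts are no independent support. The comparisons of diabetic mcIRBP with normal mock and of normal mcIRBP with diabetic mock were added after values were seen. Alternatives were median scaling, no normexp, an offset of 16, a filter on dim probes, array weights, a replicate block, the authors' normalized intensity (within a disease state), fits of the 6 compared arrays, and leaving out each array. Precision is limited by having 3 arrays per group. The limma step was tested on simulated data.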

Additional observations from a re-analysis of the deposited data

Results flagged for a closer look

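The mcIRBP effect differed between diabetic and normal mice by a direct test of the difference (diabetic minus normal, log2, limma) for 6 of the 9 probes. The differences were 3.79 for Krt18, 3.57 for Krt8, 2.88 for Perp, 2.56 for Krt14, 1.76 for Dsp (mMC009911) and 0.45 for Krt15. Krt15 was above threshold on no array. For Krt8, Krt18, Perp and the Dsp probe the difference joins a rise in diabetic mice to a fall in normal mice. None of these falls was called under median scaling, which called 292 of all 29922 probes in normal mice. The fall of the Dsp probe was lost under 4 of 20 alternatives. For Krt14 and the Dsp probe all 6 normal arrays were below threshold. Disease state and sex fell on the same arrays. With 3 arrays in a group, single arrays were not tested as outliers.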

How the results depend on the processing

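In diabetic mice Krt14, Krt18, Perp and Dsp (mMC009911) kept their direction and call under all 20 alternatives. The count of probes called of the 9 in normal mice was 5, against 0 under median scaling and 3 with array weights. In diabetic mock against normal mock, median scaling turned Krt8 to 0.46 and Dsp (mMC009911) to 0.57. Leaving out 1 array gave 6 to 7 of the 9 called in diabetic mice, 4 to 5 in normal mice, 2 to 3 between the mock groups, 5 to 7 between the mcIRBP groups and 5 to 7 for the difference of effects. The cause of these changes was not tested. Leaving out any one of 10 arrays ended the Krt8 call between the mock groups.

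Over all probes, median scaling called 4050 in diabetic mice (783 higher, 3267 lower; quantile normalization 2009, 1104 higher and 905 lower), 292 in normal mice (31 higher, 261 lower; 1898, 1069 and 829), 15092 between the mock groups (10073 higher, 5019 lower; 2606, 1415 and 1191), 1407 between the mcIRBP groups (1116 higher, 291 lower; 3508, 1816 and 1692) and 6297 for the difference of effects (1403 higher, 4894 lower; 2760, 1290 and 1470). Array weights called 6957 in diabetic and 622 in normal mice, the authors' normalized intensity 4382 and 538, and the 6 compared arrays alone 4272 and 559, with 2138 between the mcIRBP groups. Leaving out 1 diabetic mock array gave 1276 to 1321 in diabetic mice and 1129 to 1427 between the mock groups. Without normal mock replicate 1 it was 2870 in normal mice, and without diabetic mcIRBP replicate 2 it was 2229 between the mcIRBP groups.

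Arrays of the same replicate number did not deviate together (r between -0.359 and 0.251), so the numbers were not taken as pairs. With the number as a replicate block, 6 of the 9 probes were called in diabetic mice, 5 in normal mice, 3 between the mock groups, 6 between the mcIRBP groups and 5 for the difference; Krt15 lost its 3 calls. Signal near the floor limits Krt5, Krt15, Lor and Dsp (mMC011414).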
